A study of Ammopiptanthus mongolicus with 6 samples.

Results

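Leaf RNA of Ammopiptanthus mongolicus after 72 h of drought was compared with leaf RNA after 24 h of drought, which asks what differed in the leaf between the first day of water shortage and the days after it. The libraries were chosen by their labels, which gave 2 of the 6 libraries of the series, 1 for each time. All unigenes (assembled transcripts) were compared, and a unigene missing from a library's table was taken as 0 reads. Both libraries came from the leaf mesophyll of wild-type plants under drought stress, at 72 h and at 24 h. The 4 other libraries, used below to place the levels, came from the same tissue and genotype: drought at 1 h, cold at 1 h, cold at 72 h, and an untreated control. Plant age, the number of plants in a library and how the drought was applied were not given in the sources used here. In depth, the drought 72 h library held 4639933 uniquely assigned reads and the drought 24 h library 4300030, and the 6 libraries lay between 4300030 and 4673249.

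Ammopiptanthus mongolicus is an evergreen broad-leaved shrub of the legume family that grows in Central Asian desert. As background, a leaf that loses water accumulates the hormone abscisic acid, closes its stomata and switches on genes for protective proteins, compatible solutes and detoxifying enzymes, while growth and photosynthesis genes are often reduced. Some of these responses are known to be transient, and others build up as the tissue dries. The tables name unigenes by assembly identifier and pair none with a gene name, so the values below are given by identifier, no member could be assigned to a pathway, and the mesophyll label could not be checked against marker genes.

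Each time is 1 library, so the differences have no replicate check and carry no p-values. The ratio of 72 h to 24 h was given an exact 95% interval, and a unigene counted as called when that interval lay wholly above 2 (higher) or wholly below the inverse of 2 (lower). The intervals hold counting error alone and compare libraries, not conditions. In bulk leaf RNA, fewer cells of a type and less RNA per cell cannot be told apart. The cold 72 h library stands apart from the 5 others, so results that place a level among the libraries are given with and without it.

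At 72 h of drought 103 unigenes were higher than at 24 h and 111 were lower, out of 63274 with a read in either library. These are 0.163% higher and 0.175% lower, or 0.338% in both directions together. If plants were assumed to vary with a coefficient of 0.4, 40 of the higher and 33 of the lower ones would still be called. That setting takes ratios with 0.5 reads added to each count, so unigenes at 0 reads in 1 library keep the call easily. No higher unigene with at least 100 reads in the pair kept it, whereas some such lower ones did, among them CL1878.Contig1_All. The ratio to 24 h was at least 4 for 65 of the 103 higher unigenes and at least 8 for 16, with 0 reads set to 3. Among the 111 lower ones, 65 were at least 4-fold lower and 27 at least 8-fold lower. The median difference was 4.36-fold in the higher set and 5.13-fold in the lower set. That takes the 47 higher and 30 lower unigenes at 0 reads in 1 library at 3 reads there. With 0.5 reads added to each count the medians were 10.2-fold and 6.72-fold, so which set differed more depends on how 0 reads are treated. Most members were scarce: 29 higher and 38 lower unigenes had at least 100 reads in the pair, which is 0.241% and 0.315% of the 12057 unigenes of that depth. The median length was 488 bases in the higher set and 525 in the lower set, against 424 bases over all unigenes with a read in the pair.

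**Figure D1:**
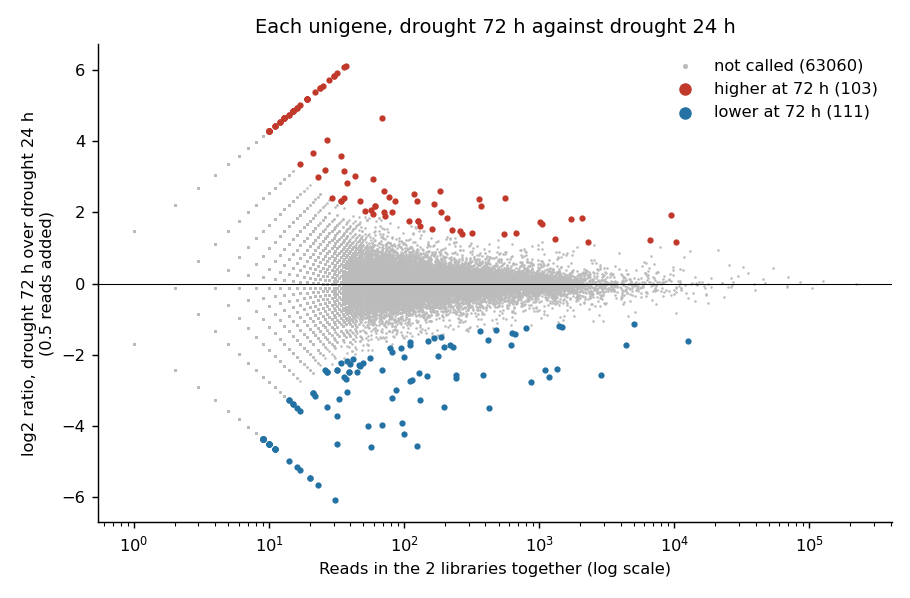
Log2 ratio of drought 72 h over drought 24 h (vertical axis, 0.5 reads added to each count) against the reads of both libraries together (horizontal axis, log scale), 1 point per unigene. The 103 higher (red) and 111 lower (blue) unigenes lie at the edges of a cloud that narrows as reads increase.

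CL1491.Contig1_All (2540 bases) had the most reads at 72 h of the higher set, 7608, with 646 RPKM (reads per kilobase of unigene, scaled to the library total) at 72 h against 170 RPKM at 24 h, a ratio of 3.797 (95% interval 3.61 to 3.997). The untreated control had it at 2423 RPKM and drought 1 h at 723 RPKM. In cold it had 798 RPKM at 1 h and 181 RPKM at 72 h. The 24 h library was the lowest of the 6 for this unigene, and the 72 h level was still below the control and below drought 1 h. Reads covered 53.7% of its length at both times. Unigene14866_All (685 bases), named after its values were seen, had the highest level per length of the higher set at 72 h, 2306 RPKM against 1022 at 24 h, 2.26-fold higher (2.16 to 2.36), beside 3809 RPKM in the control. It was again lowest in the 24 h library and below the control at 72 h.

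Other higher unigenes stood above the control at 72 h. Apart from Unigene980_All, the members in this and the following 2 paragraphs are those of at least 100 reads in the pair with the firmest interval bounds, and all were chosen after their values were seen. CL3765.Contig1_All (710 bases) had 472 reads at 72 h against 83 at 24 h, a ratio of 5.27 (4.17 to 6.74). It had 68 reads in the control, 125 at 1 h of drought, 213 at 1 h of cold and 881 at 72 h of cold. Unigene17250_All (428 bases) had 305 reads at 72 h against 54 at 24 h, a ratio of 5.23 (3.91 to 7.13), and 37 in the control, 66 at 1 h of drought, 146 at 1 h of cold and 547 at 72 h of cold. In both of these the 72 h library was the highest of the drought series and the cold 72 h library the highest of all 6.

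CL6246.Contig2_All (650 bases) had 159 reads at 72 h against 24 at 24 h, 6.14-fold higher (3.98 to 9.87), with 23 in the control and 66 at 1 h of drought. It had 15 reads at 1 h of cold and 437 at 72 h. CL5360.Contig1_All (435 bases) had 1646 reads at 72 h against 427 at 24 h, a ratio of 3.57 (3.21 to 3.98). Its reads were 237 in the control, 1150 at 1 h of drought, 370 at 1 h of cold and 735 at 72 h of cold. The 24 h library was therefore a dip between 2 high drought levels for this unigene. Unigene980_All (844 bases) had the same order over the drought series, with 1368 reads at 72 h against 362 at 24 h (3.502-fold, 3.12 to 3.94), 927 at 1 h and 217 in the control.

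Unigene23989_All (370 bases) had 307 reads at 72 h against 62 at 24 h, a ratio of 4.59 (3.48 to 6.13), with 241 in the control, 182 at 1 h of drought, 211 at 1 h of cold and 113 at 72 h of cold. Unigene24602_All (464 bases) had 102 reads at 72 h against 16 at 24 h, a ratio of 5.91 (3.47 to 10.7), and 102 in the control, 35 at 1 h of drought, 59 at 1 h of cold and 8 at 72 h of cold. CL7121.Contig3_All (689 bases) had 139 reads at 72 h against 27 at 24 h, 4.77-fold higher (3.14 to 7.50). Its other libraries held 57 reads in the control, 95 at 1 h of drought, 87 at 1 h of cold and 58 at 72 h of cold. The summed cluster CL7121 was at a ratio of 2.13 (1.66 to 2.75) and was not called. In the unigenes of this paragraph the 24 h level was low and the 72 h level lay at or above the highest of the other libraries.

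The firmest interval bounds of the higher set belonged mostly to unigenes with 0 reads at 24 h. There were 47 of these, with 10 to 37 reads at 72 h (median 14). Their folds are taken against a floor of 3 counts at 24 h (0.698 CPM, reads scaled to the library total). The counting interval reaches below these folds, to the lower bound given beside each. CL4569.Contig2_All (733 bases) had 37 reads at 72 h and 0 at 24 h, which is at least 11.4-fold higher (lower 95% bound 8.84). It had 36 reads at 1 h of drought, 8 in the control, 6 at 1 h of cold and 0 at 72 h of cold, and its reads covered only 12.8% of its length at 72 h. The other contig of its cluster had 229 reads at 72 h against 293 at 24 h, and the summed cluster was at a ratio of 0.841 (0.710 to 0.997), which is below 1. Unigene8039_All, of 855 bases, was not detected at 24 h and had 36 reads at 72 h, 11.1-fold above the floor (lower bound 8.59). It had 10 at 1 h of drought, 2 at 1 h of cold and 0 in the control and at 72 h of cold. Unigene1761_All (829 bases) had 32 reads at 72 h and 0 at 24 h, which is 9.89-fold above the floor (lower bound 7.58). It had 12 at 1 h of drought and 0 in the 3 remaining libraries. Unigene24206_All (1024 bases) had 30 reads at 72 h and 18 at 1 h of drought, was at 0 at 24 h, and was also at 0 in the control and in both cold libraries. These last 3 had reads at the first and the last drought time and none at 24 h.

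The other unigenes with the firmest bounds were less uniform. CL4713.Contig3_All (561 bases) had 67 reads at 72 h against 2 at 24 h, a ratio of 31.0 (8.27 to 262), but 58 reads in the control, 24 at 1 h of drought, 62 at 1 h of cold and 14 at 72 h of cold. Its 72 h level was thus close to that of the control and cold 1 h, and the 24 h library was the low one. Its summed cluster was at a ratio of 2.11 (1.59 to 2.81) and was not called. CL5722.Contig2_All had 30 reads at 72 h and 0 at 24 h, Unigene27361_All 28 and 0, Unigene12329_All 25 and 0, and both Unigene11212_All and Unigene36498_All 24 and 0, with lower bounds of 5.58 to 7.08. Of the 47 unigenes at 0 reads at 24 h, 42 had a read at 1 h of drought, 40 in the control, 41 at 1 h of cold and 32 at 72 h of cold. Unigene5572_All, named after its values were seen, was the 1 member with reads at 72 h of drought alone, 19 of them over 69.9% of its 875 bases.

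The firmest interval bound of the lower set was that of CL1878.Contig1_All (925 bases), with 5 reads at 72 h against 120 at 24 h, 25.9-fold lower (10.8 to 81.2). It had 52 reads in the control, 6 at 1 h of drought, 3 at 1 h of cold and 10 at 72 h of cold, so the 24 h library and the control were the high ones. CL8241.Contig2_All (2073 bases) had 5 reads at 72 h against 95 at 24 h, 20.5-fold lower (8.48 to 64.6), and 19 in the control, 26 at 1 h of drought, 18 at 1 h of cold and 14 at 72 h of cold. Its reads lay on 9.02% of its length at 72 h and 15.2% at 24 h. The other contigs of its cluster had 779 reads at 72 h against 848 at 24 h. The summed cluster was at a ratio of 0.770 (0.700 to 0.848) and was not called. CL3276.Contig2_All (450 bases) had 37 reads at 72 h against 389 at 24 h, 11.3-fold lower (8.09 to 16.4). It had 31 reads in the control, 134 at 1 h of drought, 56 at 1 h of cold and 60 at 72 h of cold, a peak at 24 h with a return to near the control.

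Unigene984_All (1798 bases) was the most abundant at 24 h of the 8 lower unigenes with at least 100 reads and the firmest bounds, at 52.7 RPKM at 72 h against 314 RPKM at 24 h, 5.95-fold lower (5.38 to 6.60). The control held it at 20.1 RPKM, beside 65.1 at 1 h of drought, 39.3 at 1 h of cold and 26.2 at 72 h of cold. The 24 h library stood alone at the top, and the 72 h level was between those of the control and drought 1 h. Unigene994_All (1153 bases) had 33.3 RPKM at 72 h against 204 RPKM at 24 h, 6.13-fold lower (5.23 to 7.24). It had 35.3 RPKM in the control, 47.5 at 1 h of drought, 14.6 at 1 h of cold and 10.5 at 72 h of cold. Unigene38005_All (865 bases) had 29.6 RPKM at 72 h against 200.02 RPKM at 24 h, 6.75-fold lower (5.55 to 8.26). Its other levels were 26.7 RPKM in the control, 49.7 at 1 h of drought, 19.2 at 1 h of cold and 11.6 at 72 h of cold. For both, the 72 h level was near that of the control, and these 3 unigenes were chosen after their values were seen.

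Unigene46663_All (449 bases) had 17 reads at 72 h against 180 at 24 h, 11.4-fold lower (6.94 to 20.0). It had 9 in the control, 29 at 1 h of drought, 19 at 1 h of cold and 12 at 72 h of cold. Unigene34442_All (495 bases) had 6 reads at 72 h against 90 at 24 h, 16.2-fold lower (7.15 to 45.3), and 8 to 24 in the other libraries. Unigene34444_All (285 bases) had 2 reads at 72 h against 55 at 24 h, 29.7-fold lower (7.83 to 251), and 2 to 11 in the other libraries. Each of these 3 was high at 24 h of drought and low everywhere else. Unigene36463_All had 4 reads at 72 h against 65 at 24 h, with 18 in the control, 30 at 1 h of drought, 41 at 1 h of cold and 8 at 72 h of cold. CL9479.Contig2_All had 3 reads at 72 h against 51 at 24 h, and 41 in the control.

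Of the lower set, 30 unigenes had 0 reads at 72 h, with 9 to 31 reads at 24 h (median 10). Unigene22627_All (479 bases) had 0 reads at 72 h against 31 at 24 h. That is 11.2-fold lower with the floor of 3 counts at 72 h (0.647 CPM), with a lower 95% bound of 8.54. It had 26 reads at 1 h of drought, 5 at 1 h of cold and 0 in the control and at 72 h of cold. Unigene9427_All had 0 reads at 72 h against 23 at 24 h, 8.27-fold lower by the floor (lower bound 6.20), and 2 to 10 reads in the other libraries. CL2954.Contig2_All had 0 reads at 72 h against 20 at 24 h, 7.19-fold lower by the floor (lower bound 5.33), with 27 at 1 h of drought and 17 in the control. Every one of the 30 had a read in at least 1 of the 4 other libraries, and 13 had reads in all 4.

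**Figure D2:**
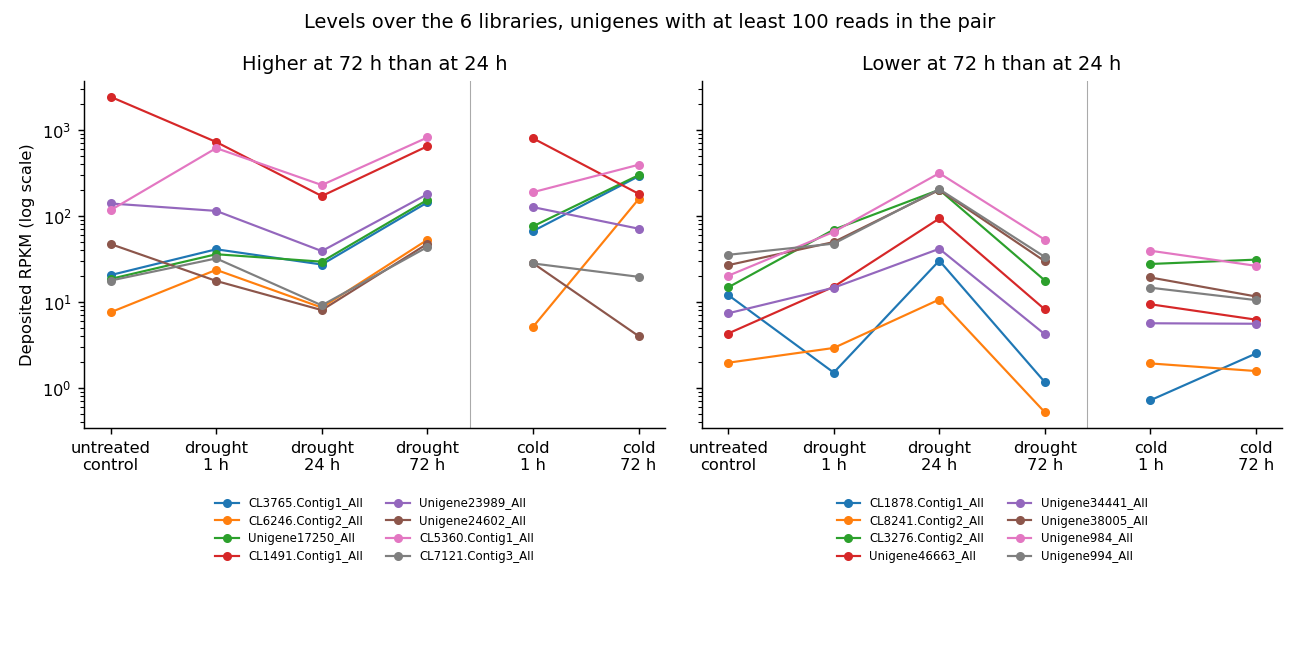
Deposited RPKM (log scale) of the 8 higher (left) and 8 lower (right) unigenes of at least 100 reads in the pair and the firmest interval bounds, 1 point per library. One line joins the untreated control and the drought libraries, and another joins the cold libraries. On the right every line is highest at drought 24 h, and on the left the drought 72 h level lies below the control for CL1491.Contig1_All, near it for Unigene24602_All and above it for the others.

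The levels in the 4 libraries outside the pair were not used for the calls and place both libraries of the pair among the rest. Of the 111 lower unigenes, drought 24 h was the highest of all 6 libraries for 84, or 75.7%, and drought 72 h was the lowest for 48, or 43.2%. Among the 103 higher unigenes, drought 72 h was the highest of all 6 for 59, or 57.3%, and drought 24 h was the lowest for 60, or 58.3%. Ties were not counted, and they fell on the lowest positions only. Drought 72 h was tied for lowest for 17 further lower unigenes, and drought 24 h for 20 further higher ones, against 0 ties for highest. The shares of lowest and highest are therefore not alike. The call itself favours such positions, contigs of 1 cluster may share reads, and the counts describe 1 library at each time. Over all 23040 unigenes that had 100 or more reads over the 6 libraries, drought 24 h was the highest for 17.2% and the lowest for 13.1%, and drought 72 h was the highest for 13.9% and the lowest for 10.1%. Without the cold 72 h library, drought 24 h was the highest for 80.2% of the lower set and the lowest for 75.7% of the higher set. In those 5 libraries, drought 72 h was the highest for 66.0% of the higher set and the lowest for 56.8% of the lower set.

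**Figure D3:**
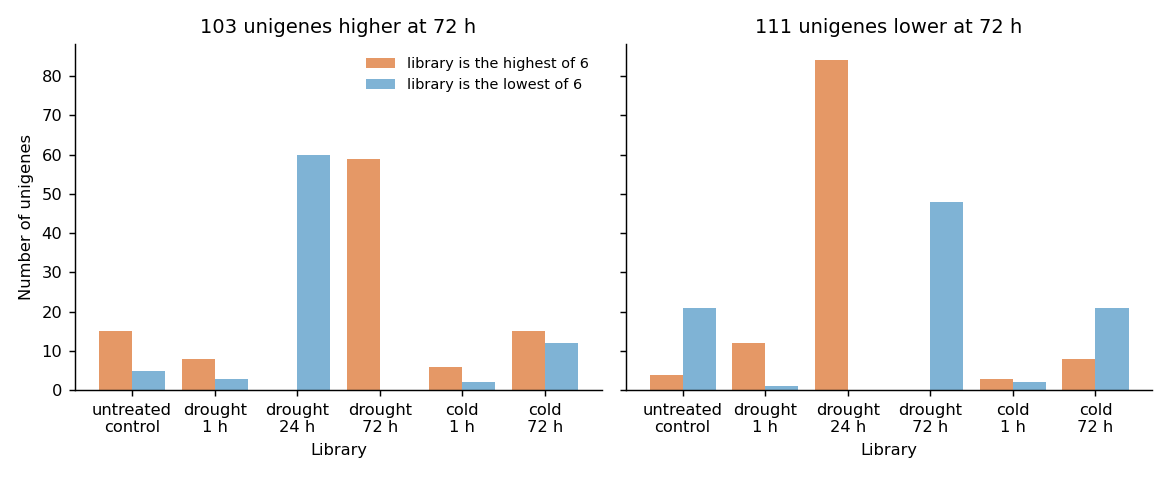
Number of called unigenes (vertical axis) for which each library was the highest (orange) or the lowest (blue) of the 6, ties left out, for the higher set (left) and the lower set (right). In the lower set the drought 24 h library was the highest for 84 of 111 unigenes.

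Among the 38 lower unigenes with at least 100 reads, the 24 h library was farther than the 72 h library from the median of the 4 other libraries for 32, or 84.2%. The median log2 distance from those libraries was -0.03 at 72 h and 2.28 at 24 h. Most of these 38 unigenes stood farther from the median of the other libraries at 24 h, and the median unigene lay near it at 72 h. The depth limit counts the 2 compared libraries only, and lower members reach it mainly through their 24 h count. CL1878.Contig1_All, for example, had 5 reads at 72 h and 120 at 24 h. The limit thus favours members high at 24 h over members low at 72 h, and the 84.2% is partly set by it. Over the whole lower set of 111, the 24 h library was farther for 69, or 62.2%, and for 55.9% without cold 72 h. The median log2 distance of the whole set was -1.21 at 72 h and 1.84 at 24 h. Its median member thus lay below the median of the other libraries at 72 h. Among the 29 higher unigenes with at least 100 reads, the 24 h library was the farther one for 18, or 62.1%, with a median log2 distance of 0.59 at 72 h and -1.08 at 24 h. Here the 72 h levels lay mostly above the median of the other libraries and the 24 h levels mostly below it. For this set the depth limit favours members high at 72 h. Over the 11990 uncalled unigenes of that depth, the 24 h library was the farther one for 55.8%. With cold 72 h left out of the comparison, the numbers were 32 of 38 and 20 of 29.

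**Figure D4:**
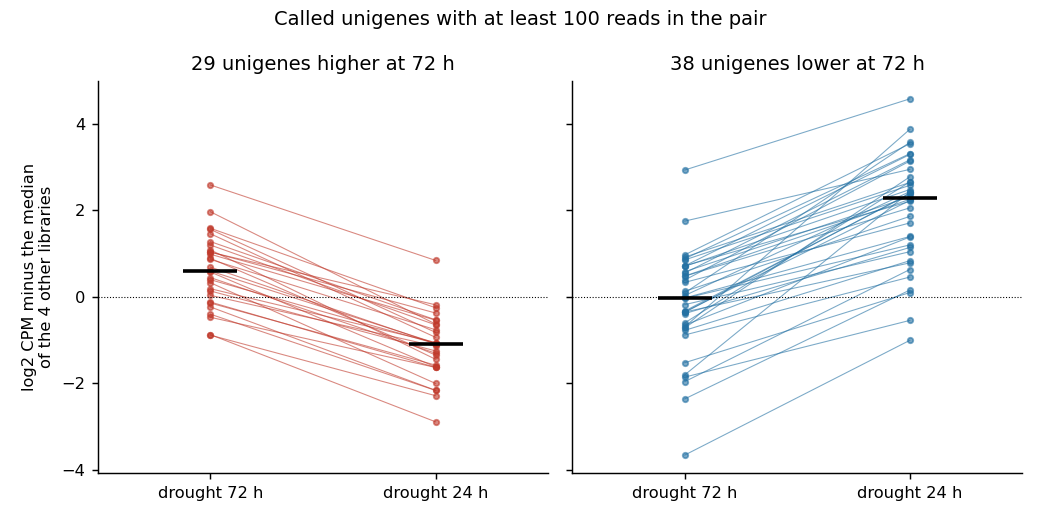
Log2 CPM minus the median of the 4 other libraries (vertical axis) at drought 72 h and drought 24 h for the called unigenes of at least 100 reads in the pair, 1 line per unigene, black bars at the medians. In the lower set (right) the median is -0.03 at 72 h and 2.28 at 24 h, and the depth limit favours a high 24 h level there.

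Further comparisons that use neither library of the pair were read for the same unigenes. Drought 1 h against the untreated control asks whether the members already differed early in drought. Of the 111 lower unigenes, 107 had a read in that comparison, and 23 of these, or 21.5%, were higher at 1 h of drought than in the control, while 3, or 2.80%, were lower. Over all 63899 unigenes 0.336% were higher and 0.164% lower. With at least 50 reads, 14 of 41 lower-set members were higher at 1 h and 3 were lower, against 0.633% and 0.348% of the 18652 unigenes of that depth. Of the higher set, 6 of 99 were higher at 1 h and 7 were lower, and with at least 50 reads 2 and 5 of 45, against 0.633% and 0.348%. The pair was not chosen on these libraries, but members have more reads than most unigenes, and these counts are a description.

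The members of the lower set that were already higher at 1 h of drought differed in where they peaked. Unigene35165_All (3231 bases) had 72.6 RPKM at 72 h against 240 RPKM at 24 h, 3.30-fold lower (3.08 to 3.54), with 120 RPKM at 1 h and 11.3 RPKM in the control. The 72 h level stayed above the control. Reads covered about 28.0% of its length at both times. Unigene17853_All (927 bases) had 451 reads at 72 h against 957 at 24 h, 2.29-fold lower (2.05 to 2.57), 484 at 1 h and 84 in the control. These 2 peaked at 24 h. Unigene1148_All (1313 bases) had 109 reads at 72 h against 256 at 24 h, 2.53-fold lower (2.02 to 3.20), and 1278 at 1 h of drought and 281 in the control, so it was highest at 1 h and at 72 h was below the control. Its call was lost under median-of-ratios scaling. CL7200.Contig2_All (911 bases) had 35 reads at 72 h against 206 at 24 h, 6.35-fold lower (4.42 to 9.37), with 675 at 1 h and 316 in the control, and was lowest of all 6 libraries at 72 h. The members named in this and the next 2 paragraphs were chosen after their values were seen.

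Some higher-set members had the reverse course. They were lower than the control at 1 h of drought, and less far below it at 72 h than at 24 h. CL7776.Contig1_All (1648 bases) had 154 reads at 72 h against 35 at 24 h, a ratio of 4.08 (2.81 to 6.07), with 117 at 1 h of drought and 417 in the control. Unigene12559_All (418 bases) had 34 reads at 72 h against 4 at 24 h, a ratio of 7.88 (2.81 to 30.6), and 9 at 1 h against 181 in the control. Unigene28431_All (381 bases) had 53 reads at 72 h against 6 at 24 h, a ratio of 8.19 (3.52 to 23.3), and 15 at 1 h against 99 in the control. For all 3 the 24 h library was the lowest of the drought series, and the 72 h level was below that of the control.

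In the cold comparisons the members' calls ran in both directions. Cold 1 h against the control had 3 of 100 higher-set members higher and 7 lower, and 4 of 109 lower-set members higher and 5 lower, against 0.336% and 0.222% of all unigenes. With at least 50 reads these were 2 and 3 of 46, and 4 and 4 of 36, against 0.62% and 0.515%. Cold 72 h against cold 1 h had 14 of 99 higher-set members higher and 12 lower, and 8 of 110 lower-set members higher and 6 lower, against 2.89% and 2.9% of all unigenes. With at least 50 reads, 14 of 43 higher-set members were higher and 6 lower, and 8 of 33 lower-set members were higher and 0 lower, against 7.06% and 5.08%. Unigene14014_All (535 bases) had 236 reads at 72 h of drought against 82 at 24 h, 2.67-fold higher (2.07 to 3.47), and 4505 reads at 72 h of cold against 124 at 1 h of cold. CL2898.Contig2_All (1327 bases) had 197 reads at 72 h of drought against 69 at 24 h, 2.65-fold higher (2.00 to 3.53), and 3987 at 72 h of cold against 160 at 1 h of cold. Its call was lost under TMM and upper-quartile scaling. Unigene30972_All (1464 bases) had the opposite direction in drought, with 20 reads at 72 h against 108 at 24 h, 5.83-fold lower (3.59 to 9.92), and 2927 at 72 h of cold against 47 at 1 h. Its reads at 1 h of drought were 209, beside 27 in the control.

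The called sets held little of either library. The higher set took 0.708% of the reads at 72 h against 0.240% at 24 h, and 1.16% in the control, 0.587% at 1 h of drought, 0.627% at 1 h of cold and 0.609% at 72 h of cold. CL1491.Contig1_All alone held 53.1% of the set's reads in the control. Without it the set took 0.544% at 72 h against 0.197% at 24 h, and 0.544% in the control, 0.403% at 1 h of drought, 0.424% at 1 h of cold and 0.564% at 72 h of cold. The call itself puts the 24 h share of this set below the 72 h share and favours a low 24 h level. The 24 h share was also below those of the 4 other libraries, with or without this unigene. The lower set took 0.219% of the reads at 72 h against 0.750% at 24 h, and 0.242% in the control, 0.396% at 1 h of drought, 0.294% at 1 h of cold and 0.474% at 72 h of cold. For this set the 72 h share was close to that of the control, but the sum rests on few members. Unigene2176_All alone held 32.3% of the set's reads at 72 h and 48.6% in the control. The median member was at 1.08 CPM at 72 h against 2.78 CPM in the control, and 30 members against 10 had 0 reads.

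**Figure D5:**
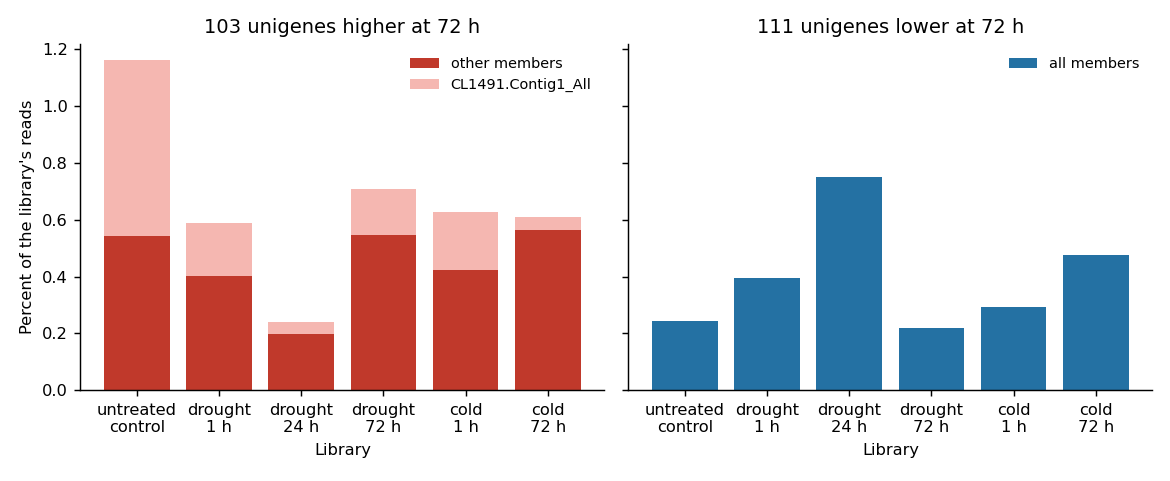
Percent of each library's reads (vertical axis) held by the higher set (left, with CL1491.Contig1_All as the pale part) and the lower set (right) in the 6 libraries. The order of drought 72 h and drought 24 h is fixed by the call in each set. The lower set is highest at drought 24 h, with 0.750%, and lies at 0.219% at drought 72 h and 0.242% in the untreated control.

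A ranking by change in CPM rather than in fold favours abundant unigenes by its nature. Most of the unigenes it put first moved by less than 2-fold. Unigene4153_All (711 bases) had 9661 RPKM at 72 h against 7175 RPKM at 24 h, a ratio of 1.35 (1.32 to 1.37), the largest gain at 1767 CPM. CL4519.Contig3_All (834 bases) had 3672 RPKM at 72 h against 1909 at 24 h, a ratio of 1.92 (1.87 to 1.98), beside 6240 RPKM in the control. CL1491.Contig1_All, described above, gained 1208 CPM, Unigene14872_All 1115 CPM at a ratio of 1.37 (1.34 to 1.40), and Unigene29515_All 1018 CPM at 1.44 (1.40 to 1.47). All of these 5 except Unigene4153_All were highest in the untreated control and lowest at 24 h of drought among the 6 libraries.

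The largest loss was that of Unigene2176_All (1269 bases), with 558 RPKM at 72 h against 1703 RPKM at 24 h, 3.05-fold lower (2.93 to 3.18), a difference of -1453 CPM. It had 926 RPKM in the control, 984 at 1 h of drought, 1020 at 1 h of cold and 684 at 72 h of cold, so it was highest of all libraries at 24 h and lowest at 72 h of drought. Unigene3445_All (5339 bases) differed by -966 CPM at a ratio of only 0.92 (0.91 to 0.93). CL6044.Contig2_All (1800 bases) had 907 RPKM at 72 h against 1329 at 24 h, 1.47-fold lower (1.42 to 1.51), with 379 RPKM in the control and 625 at 1 h of drought. CL4422.Contig3_All (1514 bases) had 558 RPKM at 72 h against 981 at 24 h, 1.76-fold lower (1.69 to 1.83), with 371 RPKM in the control and 650 at 1 h. CL4155.Contig1_All was 1.31-fold lower (1.27 to 1.34). Both CL6044.Contig2_All and CL4422.Contig3_All were still above the control at 72 h.

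Most well-measured unigenes were level between the times. Of the 1383 unigenes of at least 1000 reads in the pair, 1255, or 90.7%, had the whole interval of their ratio within 1.5-fold, and 9 were called higher and 9 lower. The 5 with most reads were among the level ones. CL340.Contig2_All (5753 bases) had 4324 RPKM at 72 h against 4336 RPKM at 24 h, a ratio of 1.00 (0.99 to 1.01), while its other libraries lay between 2861 RPKM at 1 h of cold and 7308 RPKM at 72 h of cold. Unigene8105_All had a ratio of 1.05 (1.04 to 1.06), Unigene852_All 1.02 (1.01 to 1.04) and CL3476.Contig3_All 1.14 (1.12 to 1.16). Ratios as near to 1 as these move with the choice of scaling by as much as their intervals are wide. Of the 100 most abundant unigenes, 90 were level, 2 were higher and 1 was lower, with a median ratio of 1.00, and together they held 24.1% of the reads at 72 h and 23.6% at 24 h.

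The spread of the ratios showed how far depth limits the rest. The SD of the log2 ratio was 0.33 among the 1319 unigenes with 1000 or more and under 10000 reads in the pair, 0.36 among the 10674 with 100 or more and under 1000, and 0.75 among the 27209 with 10 to 99. In the class from 100 reads 98.3% had a ratio within 2-fold, and in the class from 1000 reads 98.2%. At 1 to 9 reads, 24008 unigenes gave 11 calls, because at least 10 reads against 0 at 24 h, or 9 against 0 at 72 h, were needed. Smaller differences in such unigenes were not detectable at this depth. In all, 54527 unigenes were detected at both times, 4735 at 72 h only and 4012 at 24 h only, with a median of 1 read in each of these last groups, and 47 at 72 h only and 19 at 24 h only had at least 10 reads.

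Contigs of 1 cluster by identifier (CL and a number) may be alike in sequence and draw on the same reads, so the value of a single contig is uncertain. Among 6771 clusters with a read in the pair on at least 2 contigs, 51 had a called contig, 3 had several, all lower, and 0 had contigs called in opposite directions. In CL6046, named after its values were seen, 3 contigs were lower together. CL6046.Contig1_All had 230 reads at 72 h against 1126 at 24 h (5.28-fold lower, 4.58 to 6.11), CL6046.Contig2_All 37 against 206, and CL6046.Contig4_All 37 against 142, while CL6046.Contig3_All had 20 against 16 and was not called. All 3 lower contigs were also higher at 1 h of drought than in the control, where CL6046.Contig1_All had 391 reads at 1 h, beside 83 in the control.

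In some other clusters the called contig and the rest of its cluster differed in opposite directions. CL3276.Contig2_All, 11.3-fold lower at 72 h, held 2.75% of the reads of its cluster at 72 h against 39.6% at 24 h, while the other contig had 1309 reads at 72 h against 593 at 24 h. The summed cluster differed by a ratio of 1.27 (1.17 to 1.38), which is above 1. CL1032.Contig5_All, named after its values were seen, had 1 read at 72 h against 31 at 24 h, while the other contigs of CL1032 had 568 reads at 72 h against 376 at 24 h. CL5722.Contig2_All had 30 reads at 72 h and 0 at 24 h, beside 1319 reads at 72 h and 1571 at 24 h on the other contig of CL5722. Where the other contigs of the cluster had reads in the pair, the whole cluster was called in the same direction as the called contig for 14 of 24 higher and 13 of 31 lower ones. The interval of those other contigs lay on the same side of 1 as the called contig for 4 higher and 12 lower ones, on the opposite side for 3 higher and 4 lower ones, and held 1 for 17 higher and 15 lower ones. Whether the reads of these contigs shifted in the leaf or in the assignment was not tested.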

How the data were processed

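Each library is 1 table, per the file headers, giving for each unigene a count of reads assigned to it alone, its length, percent coverage of its length by reads, and RPKM, all made by the authors. The deposited counts summed to the total in the header of each library, and the deposited RPKM equalled count per kilobase scaled by that total (largest relative deviation 8.68e-09). Percent coverage was used as deposited. The submitters' processing notes name Bowtie 0.12.2. Assembler, unigene filters and strand use in counting were not given in the sources used here. RNA was extracted with Trizol and made into TruSeq libraries, per the labels' protocols. The series' design text speaks of triplicates; 1 library per group is analysed here.

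Ratios are counts over library totals, with exact 95% intervals (Clopper-Pearson, scipy 1.17.1), and a call needs the interval beyond 2-fold. Against 0 reads, folds use a floor of 3 counts per library. No molecular identifiers were counted and reads may repeat a molecule, so intervals and floors cover counting error only. The computation was tested on simulated data. No test across samples was made, because each group is 1 library. Named are the 10 higher and 10 lower unigenes with the firmest bounds, the 5 with the largest CPM gain and loss, the 5 with most reads, which are also the 5 level ones with most reads, and the 3 each way with most reads against 0; other choices are marked. The comparison, rules and lists were chosen with earlier results of these data known. Alternatives used edgeR 4.0.16 and DESeq2 1.42.0 for scaling factors, in R 4.3.3. The rest ran in Python 3.11.15 with pandas 2.3.3, numpy 2.4.6 and, for plots, matplotlib 3.10.9.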

Additional observations from a re-analysis of the deposited data

How the results depend on the processing

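The counts of 103 higher and 111 lower unigenes stayed within 1.5 times, at 100 and 114 under TMM, 100 and 116 under upper-quartile scaling, 107 and 111 for totals without the 100 most abundant unigenes, 113 and 105 under median-of-ratios scaling, 103 and 100 with at least 10 reads, and 93 and 92 with contigs of 1 cluster summed. In the last 3 the higher set was the larger one. The limit of 10 reads removes lower unigenes only, by construction. A lower call needs 9 reads against 0, and a higher call needs 10. They were 29 higher and 38 lower with at least 100 reads in the pair, 17 and 27 beyond 4-fold, 34 and 39 at a stricter confidence level, and 49 and 60 for unigenes of at least 500 bases, all of which keep fewer unigenes by construction. They were 61 and 63 when plants were assumed to vary with a coefficient of 0.2, and 40 and 33 with 0.4. They were 1017 and 974 under the looser call of a 2-fold ratio whose interval excludes 1. They were 1593 and 1505 with 1 added to RPKM, and 2124 and 1932 with 0.1 added. Both RPKM settings ask for a 2-fold ratio without an interval and use a lower limit of 5 RPKM. Which direction had more thus depends on the setting. Apart from the limit of 10 reads, the cause was not tested.

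The share of higher unigenes with drought 24 h the lowest of the libraries was 58.3%, and became 47.1% at that stricter level, 23.5% beyond 4-fold and 75.7% without cold 72 h. Ties at 0 reads were not counted as lowest. Beyond 4-fold, CL4569.Contig2_All, Unigene8039_All, Unigene1761_All and Unigene24206_All had 0 reads at 24 h and in another library. The low share there thus depends on how ties are counted. The share with drought 72 h the highest became 70.6% beyond 4-fold. The share of lower unigenes with drought 24 h the highest became 84.6% at that stricter level and 85.2% beyond 4-fold. The share with drought 72 h the lowest became 28.9% with at least 100 reads and 56.8% without cold 72 h. Lower members reach that depth mainly through their 24 h count, so the 28.9% is partly set by the limit. The alternative without cold 72 h was chosen after seeing the data. Over the 46 named unigenes and 4 other scalings, 12 ratios of 6 abundant unigenes with main ratios of 0.92 to 1.35 left the counting interval, and that of CL340.Contig2_All crossed 1. Of all called unigenes, 3 higher and 6 lower lost the call under a scaling, CL2898.Contig2_All and Unigene1148_All of the text among them, and 0 turned. Scaling moved all ratios by -0.02 to 0.03 on the log2 scale. No paired analysis was possible because each group is 1 library, and no replicate could be left out. The spread between plants is unknown.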

Other observations

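Among the 153 called unigenes that are not contigs of a cluster, 3 pairs had consecutive identifier numbers, and both unigenes of each pair were lower at 72 h than at 24 h of drought. This was noticed in the data. Unigene34441_All (668 bases) had 13 reads at 72 h against 119 at 24 h, 9.88-fold lower (5.56 to 19.1), beside Unigene34442_All with 6 against 90. Unigene17854_All (488 bases) had 6 reads at 72 h against 33 at 24 h, beside Unigene17853_All with 451 against 957, and both were also higher at 1 h of drought than in the control, with 53 against 12 reads and 484 against 84. The meaning of consecutive numbers in this assembly was not given in the sources used here.

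Of the 15 pairs of libraries, drought 72 h and drought 24 h shared the most of their reads, but they were not the closest pair by other measures. By the sum of differences in read share, 8.43% of the reads would have to move to another unigene to turn one library into the other. The next lowest value was 9.71%, for drought 72 h and cold 1 h, and the pairs with cold 72 h lay between 22.0 and 24.0%. Drought 72 h and drought 24 h had 214 called unigenes between them, beside 213 for drought 72 h and cold 1 h. Among unigenes of at least 1000 reads, the coefficient of variation left after counting error was 0.159 for drought 72 h and drought 24 h, beside 0.149 for drought 72 h and cold 1 h.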
